A study of Mus musculus with 61 samples.

Results

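RNA of sorted retinal cells was compared between young DBA/2J mice and young D2-Gpnmb+ mice. The comparison took every library that the labels put at 4 months of age on plain water, 10 of DBA/2J and 10 of D2-Gpnmb+, which is 20 of the 61 libraries of the study. DBA/2J is an inbred strain that carries a mutant Gpnmb allele, and it develops a disease of the iris pigment followed by raised eye pressure and glaucoma. D2-Gpnmb+ mice share the DBA/2J background but carry a functional Gpnmb allele, and the series' design text describes them as matched for age and sex. In 1 of the 61 libraries, a 9-month D2-Gpnmb+ library (number 8), Xist, the RNA of the inactive X chromosome in females, was 7.92 against 4076 to 18257 in the others. That library goes against the matching, and pooled 9-month results are given with and without it, except that list medians include it. The labelled retinal ganglion cells were live cells positive for Thy1.2 and negative for Cd11b, Cd11c, Cd34, Cd45.2 and GFAP, from eyes without axon loss in the optic nerve. The remaining libraries came from 9-month mice: 25 of DBA/2J and 9 of D2-Gpnmb+ on water, and 7 of DBA/2J given nicotinamide at 500 mg per kg per day. The labels do not say how many animals gave each library, so the tests measure the spread between libraries, which may in part be technical. In the labels the sample numbers of all 4-month DBA/2J libraries come before those of all 4-month D2-Gpnmb+ libraries, so strain and any order of handling cannot be told apart.

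Gpnmb encodes a transmembrane glycoprotein of melanosomes and of phagocytic cells. In DBA/2J a premature stop in Gpnmb acts together with a variant of Tyrp1, a melanosomal protein, and pigment shed from the iris obstructs the outflow of fluid from the eye. Ganglion cells, whose axons form the optic nerve, are the neurons that glaucoma damages. The 4-month groups represent the strains before this damage.

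Values are normalised read counts as deposited, and log2 fold changes are DBA/2J minus D2-Gpnmb+ on the scale of log2 of the value plus 1, with their standard errors. Of 12804 genes tested with limma, 32 passed a Benjamini-Hochberg adjusted p of 0.05, which is 0.25% of them. In DBA/2J 13 were higher (0.102%) and 19 lower (0.148%), and 31 of the 32 had a gene name. Counts of limma calls in the lists below stand against these shares. The plot of all tested genes shows Gpnmb as the gene farthest below 0, with Pde10a and Mpc1 at the top. At an unadjusted p of 0.05, 1726 genes passed (13.5%), 873 higher (6.82%) and 853 lower (6.66%). In only 4 tested genes (0.0312%) did every library of one strain lie beyond every library of the other: Gpnmb, Pde10a, Mpc1 and Slc43a2. On reads recovered from the values, edgeR called 36 genes (0.281%), 12 higher (0.0937%) and 24 lower (0.187%). DESeq2 called 240 (1.87%), 96 higher (0.75%) and 144 lower (1.12%), and its counts below stand against that wider background. It gave no adjusted p to 3724 of the 12804 genes, Mpc1 among them. Such genes are counted in these percentages and in the lists below, although DESeq2 could not call them.

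**Figure D1:**
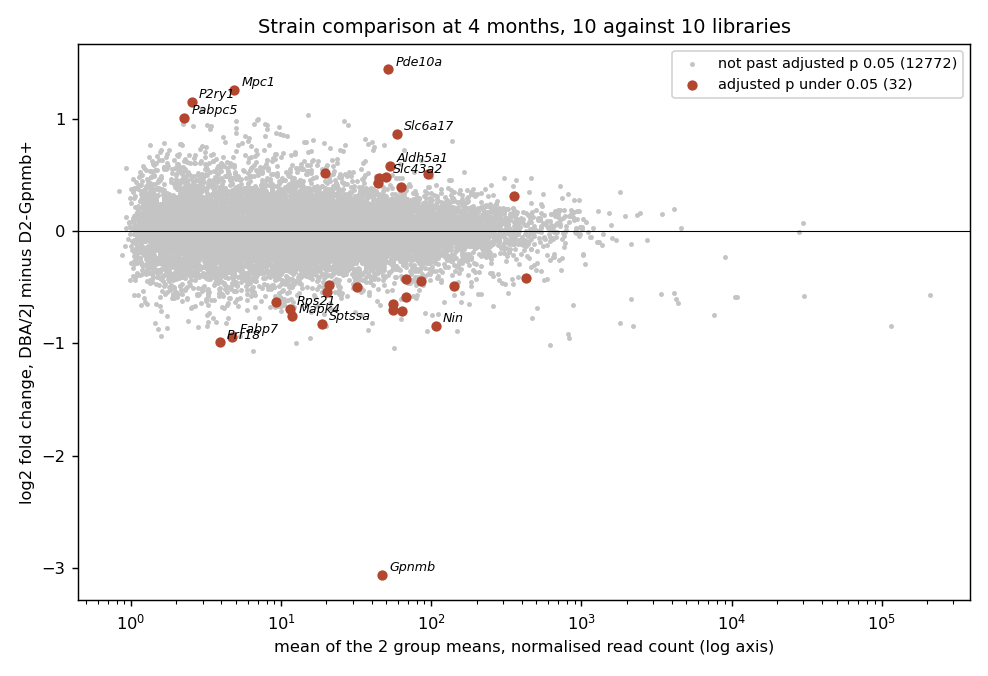
Log2 fold change of each tested gene (vertical) against the mean of the 2 group means in normalised read counts (horizontal, log axis), 10 DBA/2J against 10 D2-Gpnmb+ libraries at 4 months. The 32 genes with an adjusted p under 0.05 are red. Gpnmb lies at −3.06, Pde10a at 1.44 and Mpc1 at 1.26.

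Markers were read first against the labelled cell type. The ganglion cell genes Thy1 (32.8 ± 15.4 in DBA/2J against 18.4 ± 5.30, SD, n = 10 each) and Rbpms (11.6 ± 3.31 against 14.5 ± 3.96) were present at low levels. Pou4f2, Pou4f3 and Isl2, transcription factors of ganglion cells, were not among the genes analysed here. Rod genes were present too, such as Pde6g at 334 ± 85.9 against 607 ± 284, and so were markers of other retinal cells. Ganglion cell markers summed to a median of 546 per DBA/2J library and 378 per D2-Gpnmb+ library. Bipolar markers summed to 10075 and 10064, rod markers to 8324 and 9762, and Müller glia markers to 2596 and 2704. Cone markers summed to 2138 and 3113, and amacrine markers to 972 and 727. Such sums depend on the markers chosen and do not measure shares of cells. Fewer cells of a type and less RNA per cell cannot be told apart in such bulk samples. Read totals per library ran from 5449826 to 11016497 for DBA/2J, and for D2-Gpnmb+ from 7062913 to 11309143 (two-sided permutation test, p = 0.673). The mitochondrial ribosomal RNAs and the ribosomal precursor Rn45s took 26.8 ± 5.02% of the reads of a DBA/2J library, against 35.0 ± 9.40% for D2-Gpnmb+ (permutation p = 0.0269, adjusted over 4 library measures 0.107). That difference had a p of 0.0504 without D2-Gpnmb+ replicate 4 and 0.0506 without replicate 6. The share also varied along the order of the deposited columns, so the test cannot tell strain from that order. At 4 months the share was highest in the adjacent D2-Gpnmb+ replicates 4, 5 and 6 (46.9, 45.6 and 48.2%). A 9-month D2-Gpnmb+ library just before replicate 3 had 44.4%, and the last 4-month DBA/2J library, replicate 10, had 37.01%. D2-Gpnmb+ replicates 1 and 10, the first and last, had 29.7 and 23.5%, within the DBA/2J range of 20.91 to 37.01%. With the share as a covariate only Gpnmb, Mpc1 and Pde10a passed, and without DBA/2J replicate 4 only 6 genes did. The part of this share in the other calls was not tested.

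Gpnmb itself checks the labels at 4 months. In the 10 DBA/2J libraries its level ran from 3.69 through a median of 9.00 to 14.5, and in the 10 D2-Gpnmb+ libraries from 34.7 through 93.2 to 130. No DBA/2J library reached the lowest D2-Gpnmb+ library. The log2 fold change was −3.06 ± 0.23 (adjusted p = 5.01e-08). Gpnmb fell under all 13 alternative settings and in all 20 fits that left out 1 library. Its transcript was still counted in DBA/2J, with 33 to 124 reads per library. The gene lies on chromosome 6 at 49036518 to 49058182 on the plus strand (GRCm38.p6, RefSeq).

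The bases before the start of Gpnmb, and before those of Mpc1 and Prr18, are shown because these 3 genes differed between the strains and carry contrasting promoters. Each sequence is the RefSeq GRCm38.p6 plus strand, 5′ to 3′, with CG pairs in capitals, and it comes from the reference strain, so bases particular to DBA/2J are not in it.
Gpnmb, chr6:49036268-49036517: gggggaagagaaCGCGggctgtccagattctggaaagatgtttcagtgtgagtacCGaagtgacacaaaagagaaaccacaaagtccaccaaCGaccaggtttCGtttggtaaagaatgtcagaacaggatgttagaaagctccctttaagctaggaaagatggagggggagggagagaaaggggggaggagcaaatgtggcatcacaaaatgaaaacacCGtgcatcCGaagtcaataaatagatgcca
Mpc1, chr17:8283537-8283786: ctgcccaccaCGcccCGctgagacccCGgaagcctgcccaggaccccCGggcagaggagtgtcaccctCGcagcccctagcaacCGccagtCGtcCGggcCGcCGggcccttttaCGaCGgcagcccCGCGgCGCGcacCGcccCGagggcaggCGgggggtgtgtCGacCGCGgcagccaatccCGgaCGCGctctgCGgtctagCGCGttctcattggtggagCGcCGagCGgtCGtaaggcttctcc
Prr18, chr17:8340156-8340405: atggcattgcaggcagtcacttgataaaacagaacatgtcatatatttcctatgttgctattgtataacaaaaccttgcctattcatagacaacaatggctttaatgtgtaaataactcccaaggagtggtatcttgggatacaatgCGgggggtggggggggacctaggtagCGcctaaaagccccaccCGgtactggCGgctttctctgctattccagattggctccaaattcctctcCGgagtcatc
The Gpnmb window has 7 CG pairs, the Mpc1 window 32 and the Prr18 window 5. Over the 10137 tested genes with a promoter entry the median was 16. Promoters with at most the 7 of Gpnmb made up 19.6%, and those with at least the 32 of Mpc1 made up 8.77%. Mpc1 therefore has a CG-rich promoter and the other pair have CG-poor ones, which is a description and not a measure of methylation.

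Close together on chromosome 17 lay 3 of the called genes. Pde10a and Mpc1 rose in DBA/2J and Prr18 fell, and their starts lie within 241.4 kb. Pde10a encodes a phosphodiesterase that breaks down cyclic AMP and cyclic GMP. Mpc1 encodes a subunit of the carrier that takes pyruvate into mitochondria. Prr18 encodes a proline-rich protein.

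Pde10a (17:8525187-8986648, plus strand) ran from 52.8 through a median of 75.8 to 94.2 in DBA/2J, and from 18.1 through 27.5 to 37.7 in D2-Gpnmb+. All 10 DBA/2J libraries lay above all 10 D2-Gpnmb+ libraries. The log2 fold change was 1.44 ± 0.13 (adjusted p = 5.01e-08), with 421 to 828 reads per library against 134 to 389. It passed in 20 of 20 fits with 1 library left out and in 12 of 13 other settings, the exception being the fit over all 61 libraries.

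Mpc1 (17:8283787-8297667, plus strand) ran from 5.55 through 6.73 to 10.95 in DBA/2J and from 1.18 through 2.48 to 4.09 in D2-Gpnmb+. The groups were again apart, at 48 to 87 reads per DBA/2J library and 6 to 33 per D2-Gpnmb+ library. The log2 fold change was 1.26 ± 0.16 (adjusted p = 8.24e-05). Mpc1 passed under each of the 12 settings that gave it an adjusted p and in 20 of 20 fits with 1 library left out. Its partner in the carrier, Mpc2, named here outside the rule for named genes, had 9.42 ± 1.75 against 10.9 ± 2.88 (adjusted p = 0.602).

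Prr18 (17:8340406-8344113, plus strand) ran from 1.13 through 2.00 to 4.10 in DBA/2J and from 2.01 through 4.70 to 10.6 in D2-Gpnmb+. The groups overlapped in their middle range. The log2 fold change was −0.99 ± 0.22 (adjusted p = 0.0463), from 9 to 35 reads per DBA/2J library and 12 to 79 per D2-Gpnmb+ library. This call was near the threshold, passing in 5 of 11 other settings and in 4 of 20 fits with 1 library left out.

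The non-coding gene 4930506C21Rik (17:8293366-8311118, minus strand) overlaps Mpc1 on the opposite strand. Its mean was 1.67 ± 0.749 in DBA/2J against 3.93 ± 1.67 in D2-Gpnmb+, a log2 fold change of −0.85 ± 0.20 that missed the threshold (adjusted p = 0.0541). Its difference was therefore opposite in sign to that of Mpc1. Whether counting used strand is not given in the sources used here, and without strand reads of the shared stretch cannot be assigned to either gene.

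Within 1 Mb of these starts 9 genes were tested. Of the 6 that did not pass, 1 had an unadjusted p under 0.05 (4930506C21Rik), and their log2 fold changes ran from −0.85 to 0.20. Between Mpc1 and Pde10a, Sft2d1 had −0.28 ± 0.15 and Gm16702 had −0.34 ± 0.18, neither past the threshold. On the other side of Mpc1, Fgfr1op (0.20 ± 0.13), Rsph3a (0.08 ± 0.18) and Fndc1 (0.00 ± 0.29) did not pass. Of 19 tested genes within 1 Mb only Gpnmb passed, and of the other 18, 2 had an unadjusted p under 0.05. These 18 lay between −0.55 (Sspo, adjusted p = 0.178) and 0.21 (Lrrc61, adjusted p = 0.355).

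**Figure D2:**
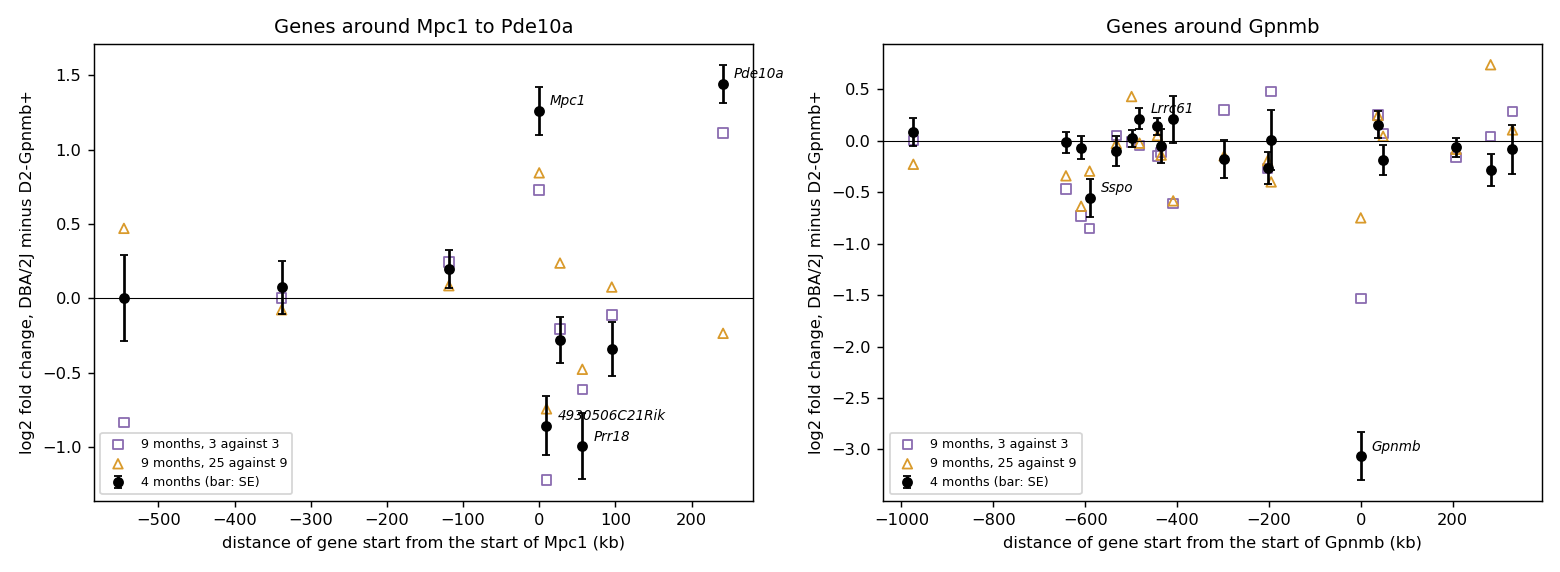
Log2 fold change of tested genes (vertical) against the distance of their start from that of Mpc1 (left) or Gpnmb (right) in kb. Black points with SE bars are the 4-month comparison, and open symbols are the 9-month comparisons in other libraries. Mpc1 and Pde10a stand above 1 and Prr18 and 4930506C21Rik near −1 among neighbours close to 0, while Gpnmb stands alone at −3.06.

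Libraries of 9 months, none of them used at 4 months, gave the same contrast a further time. Mpc1 averaged 6.91 ± 2.27 in 25 DBA/2J libraries and 3.35 ± 0.964 in 9 D2-Gpnmb+ libraries, a log2 fold change of 0.84 ± 0.17 just outside the threshold (adjusted p = 0.0578). Without the D2-Gpnmb+ library of low Xist it was 0.80 ± 0.18 (adjusted p = 0.138). The non-coding 4930506C21Rik had −0.74 (adjusted p = 0.178) and Prr18 −0.48 (adjusted p = 0.496). Gpnmb had 31.7 ± 16.4 against 54.2 ± 24.1, or −0.75 ± 0.28 (adjusted p = 0.215). Its level ran from 8.39 to 78.3 in DBA/2J and from 11.9 to 83.5 in D2-Gpnmb+, so it did not separate the pooled groups. Pde10a did not show the 4-month direction in these pooled libraries, at 35.7 ± 24.9 against 45.9 ± 41.2 (−0.23 ± 0.39). Without the library of low Xist the values were −0.41 for Pde10a, −0.78 for Gpnmb, −0.58 for Prr18 and −0.73 for 4930506C21Rik, and none passed.

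The columns of the deposited table fall into stretches, and only 3 DBA/2J and 3 D2-Gpnmb+ libraries of 9 months lie in the stretch that holds the 4-month libraries. What the stretches stand for is not given in the sources used here. In those 6 libraries Pde10a had 32.6, 72.3 and 75.7 in DBA/2J and 35.9, 16.95 and 27.4 in D2-Gpnmb+. The groups overlapped through 1 DBA/2J library, and the log2 fold change was 1.11 ± 0.35 (adjusted p = 0.766). Mpc1 had 8.73, 5.17 and 6.38 against 3.97, 3.80 and 3.07, all 3 DBA/2J libraries lying above (0.73 ± 0.31). Groups of 3 against 3 did not overlap in 11.2% of all tested genes, so the separation alone sets no gene apart. Gpnmb had 31.8, 18.6 and 26.5 against 65.4, 77.9 and 80.8, all 3 lying below (−1.53 ± 0.21, adjusted p = 0.131). The overlapping 4930506C21Rik had 0.776, 0.949 and 1.11 against 3.45, 3.66 and 3.45, again without overlap (−1.22). No gene passed the adjusted threshold in this 3 against 3 fit, and 804 did so at an unadjusted p of 0.05 (6.28%).

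**Figure D3:**
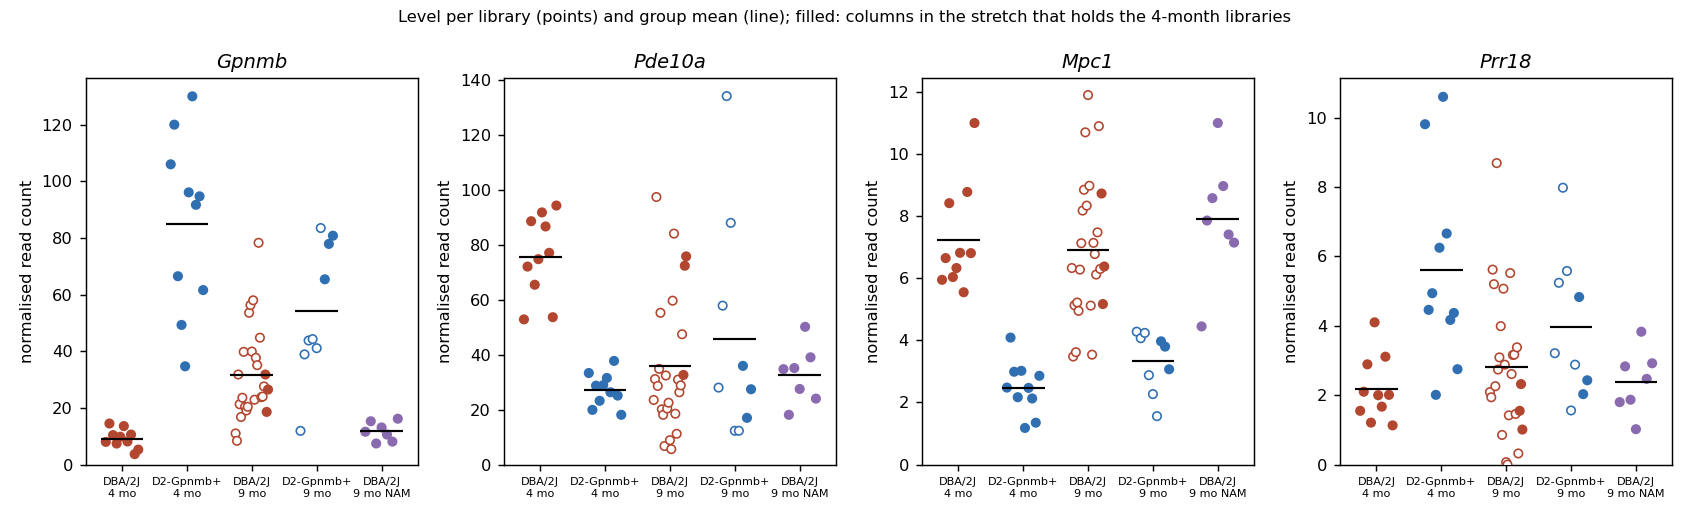
Normalised read count of Gpnmb, Pde10a, Mpc1 and Prr18 in each of the 61 libraries (points) with group means (lines). Filled points are libraries in the stretch of columns that holds all 4-month libraries. At 4 months the strains are apart in the 3 genes on the left, and at 9 months Mpc1 averages 6.91 against 3.35 while Pde10a averages 35.7 against 45.9.

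In DBA/2J 3 genes of amino acid and transmitter handling rose. Slc43a2 (11:75529915-75577575) transports neutral amino acids. It ran from 52.4 through 58.0 to 67.8 in DBA/2J and from 34.3 through 41.4 to 49.2 in D2-Gpnmb+, without overlap (0.49 ± 0.08, adjusted p = 0.00672). Aldh5a1 (13:24907579-24937661) encodes succinate semialdehyde dehydrogenase, which completes the breakdown of GABA. It ran from 52.7 through 64.6 to 76.2 against 31.6 through 42.1 to 52.9, so that the highest D2-Gpnmb+ library just passed the lowest DBA/2J library (0.58 ± 0.09, adjusted p = 0.00308). Both passed in 20 of 20 fits with 1 library left out and in 11 of 13 other settings. The exceptions were the fit over all 61 libraries and that with the ribosomal RNA share as a covariate. Both overlap an antisense gene in the annotation. At 9 months Slc43a2 had −0.02 in the pooled libraries (0.01 without the library of low Xist) and 0.10 in the stretch. The vesicular amino acid transporter Slc6a17 rose from 41.4 ± 12.4 in D2-Gpnmb+ to 76.9 ± 25.7 in DBA/2J (0.87 ± 0.18, adjusted p = 0.0463). It passed in 6 of 20 fits with 1 library left out.

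Of 27 tested amino acid and transmitter transporters, 2 were called higher (all genes 0.102%) and none lower (all genes 0.148%). The median log2 fold change was 0.03, beside 0.01 over all tested genes. Of 11 tested genes of GABA metabolism, Aldh5a1 was called, and 3 had an unadjusted p under 0.05 in the higher direction (all genes 6.82%). The median was 0.34, or 0.13 with the ribosomal RNA share as a covariate. At 9 months the list median was −0.55 in the pooled libraries and −0.64 in the stretch. Among these genes the GABA transporter gene Slc6a11 (172 ± 41.5 against 134 ± 23.2, adjusted p = 0.187) did not pass. Neither did the GABA-forming enzymes Gad1 (54.04 ± 37.1 against 27.3 ± 13.4) and Gad2 (125 ± 86.4 against 74.4 ± 37.3), whose DBA/2J libraries varied widely. Gad1 and Gad2 are also amacrine cell markers.

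In DBA/2J 2 genes of sphingolipid synthesis fell. Sptssa, a small subunit of serine palmitoyltransferase, the enzyme that starts the pathway, ran from 8.67 through 11.8 to 18.6 in DBA/2J and from 16.1 through 22.8 to 36.7 in D2-Gpnmb+. It fell by 0.82 on the log2 scale (SE 0.15, adjusted p = 0.0182) and passed in 19 of 20 fits with 1 library left out. Ormdl1, whose product restrains the same enzyme, fell from 23.95 ± 3.04 to 16.4 ± 3.71 (−0.54 ± 0.12, adjusted p = 0.0463), a call kept in 4 of 20 such fits. Both genes lost their call with scaling to total reads. The catalytic subunit gene Sptlc2 had 27.7 ± 3.88 against 23.7 ± 3.30 (adjusted p = 0.342). Ugcg, which makes glucosylceramide, had 178 ± 21.5 against 153 ± 20.9 (adjusted p = 0.255). Over the 22 tested genes of the list, which held these 2 calls (all genes 0.148% lower), the median was 0.00, with 11 positive and 11 negative values.

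The growth factor response list held 2 genes that fell in DBA/2J. Spred1, an inhibitor of Ras to ERK signalling, ran from 18.8 through 26.1 to 34.0 in DBA/2J and from 33.4 through 36.4 to 43.6 in D2-Gpnmb+ (−0.50 ± 0.10, adjusted p = 0.0271). Only the upper end of DBA/2J touched the lower end of D2-Gpnmb+. Etv5, an ETS transcription factor induced by fibroblast growth factors, fell from 69.1 ± 18.1 to 41.5 ± 9.07 (−0.70 ± 0.15, adjusted p = 0.0353). Spry4, a feedback inhibitor of the same route, had 30.0 ± 13.1 against 50.5 ± 11.9 and missed the threshold (−0.82 ± 0.22, adjusted p = 0.115). Among 16 tested genes of this list, 2 were called lower (all genes 0.148%) and none higher, 10 were negative, and the median was −0.22. With scaling to total reads the median was 0.02, beside 0.24 over all tested genes, and neither Spred1 nor Etv5 passed.

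Among 11 tested MAP kinases, Mapk4, an atypical member of the family, was the only one called (all genes 0.25%). It ran from 4.73 through 8.63 to 14.1 in DBA/2J and from 11.9 through 14.3 to 18.7 in D2-Gpnmb+ (−0.76 ± 0.15, adjusted p = 0.0271). Mapk10, which encodes the neuronal kinase JNK3, had 160 ± 27.8 against 125 ± 14.3 (0.35 ± 0.09, adjusted p = 0.097). Its substrate gene Jun had 16.8 ± 5.98 against 11.1 ± 2.96 (0.55 ± 0.17, adjusted p = 0.137). The median over the family was 0.05.

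The calls also held 9 genes grouped here after their values were seen, whose products act on transcription or RNA. The DNA-binding partner of Myc, Max, fell by 0.49, and the nuclear receptor gene Nr6a1 fell by 0.48. Sox30 fell by 0.63 and the leucine zipper gene Tsc22d2 by 0.45. The zinc finger genes Zfp518b and Zfp532 rose, by 0.47 and 0.39, and so did Bclaf1, a nuclear factor of transcription and splicing, by 0.31. Bclaf1 was abundant, at 392 ± 31.6 against 316 ± 25.1. Cpeb1, which controls the tail length of stored messages, fell from 69.0 ± 21.003 to 42.6 ± 6.27 (−0.65 ± 0.13). The poly(A)-binding protein gene Pabpc5, on the X chromosome, rose from 1.23 ± 0.798 to 3.30 ± 0.890 (1.01 ± 0.20). Adjusted p in these 9 genes ran from 0.0271 to 0.0463. Leaving out 1 library kept Zfp518b and Cpeb1 in 17 of 20 fits and Max in 15, but Zfp532 and Bclaf1 in 6 and Nr6a1 and Sox30 in 5.

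Single genes of signalling, trafficking and glia also passed. P2ry1, a receptor for ADP, rose from 1.17 ± 0.740 to 3.90 ± 1.83 (1.16 ± 0.24). The sodium-proton exchanger gene Slc9a8 (0.52 ± 0.12), the deubiquitinase gene Usp11 (0.51 ± 0.11) and Vps33a (0.43 ± 0.10), which acts in fusion with lysosomes, rose. Nin, a centrosomal protein gene, fell by 0.84, from 137 ± 37.5 to 77.0 ± 25.7. Fabp7, a fatty acid carrier of glia, fell from 6.58 ± 2.52 to 2.86 ± 1.05 (−0.94 ± 0.20), and it was the only one of 18 tested Müller glia markers to pass. The Müller glia enzyme gene Glul had 1000.05 ± 515 against 1110.2 ± 219 (adjusted p = 0.628). The median over the Müller glia list was −0.06, with 13 of 18 negative. Scaled to total reads it was 0.17, beside 0.24 over all tested genes. In fits with 1 library left out, P2ry1 passed in 10 of 20, Usp11 and Fabp7 in 9, Nin in 8, Slc9a8 in 7 and Vps33a in 5.

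At 9 months, 12 of the 32 genes had the sign they had at 4 months, beside 44.8% of all tested genes, when all 34 water libraries were used. In the stretch shared with the 4-month libraries 24 of 32 kept the sign, beside 52.8% of all tested genes. Strain follows column order there as it does at 4 months, so this count cannot tell strain from order. Genes with the same sign and an unadjusted p under 0.05 numbered 4 in the pooled fit, beside 4.24% of all tested genes, and 6 in the stretch, beside 3.63%. The 4 in the pooled fit were Gpnmb, Mpc1, Spred1 and Tsc22d2, named because the count is small. None of the 32 passed the adjusted threshold at 9 months by limma in either set, while 10 had an unadjusted p under 0.05 in either direction in the pooled libraries, beside 13.2% of all tested genes, and 7 in the stretch, beside 6.28%. Of all 12804, 3 passed in the pooled fit (0.0234%). With edgeR, Mpc1 was the 1 gene of the 32 to pass in the pooled libraries, and it missed the threshold without the library of low Xist (adjusted p = 0.0849). Without that library limma again called none of the 32, with 11 at an unadjusted p under 0.05, and none of all tested genes, with 1733 at that p, while edgeR called 4 of all tested genes. The sign was then kept by 12 of 32, beside 45.8% of all tested genes. The median size of the 4-month log2 fold change was 0.61 over the 32 genes. Taken in the 4-month direction, the 9-month median was −0.05 in the pooled libraries and 0.15 in the stretch.

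The interaction of strain with age tested whether the difference changed. It passed for 7 of the 32 genes in the pooled libraries, beside 54 of 12804 tested genes (0.422%), and by limma for 0 of 32 in the stretch, beside 8 of all tested genes (0.0625%). In the stretch 12 of the 32 had an unadjusted p under 0.05, beside 8.27% of all tested genes. Without the library of low Xist the pooled interaction passed for 4 of the 32 (Gpnmb, Aldh5a1, Zfp518b and Rps21) and for 14 of all tested genes. For Pde10a the pooled interaction missed the threshold (adjusted p = 0.0946, or 0.075 without that library). The 4-month values that chose the genes also enter this test, so its count over them is a description. Rps21, for example, had 8.51 ± 1.85 against 14.3 ± 2.84 at 4 months and 25.1 against 12.6 in the pooled libraries of 9 months, while its log2 fold change in the stretch was −0.14. Aldh5a1 had 63.4 ± 7.18 against 42.2 ± 6.73 at 4 months and 42.2 against 56.2 in the pooled libraries of 9 months, with 0.03 in the stretch.

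**Figure D4:**
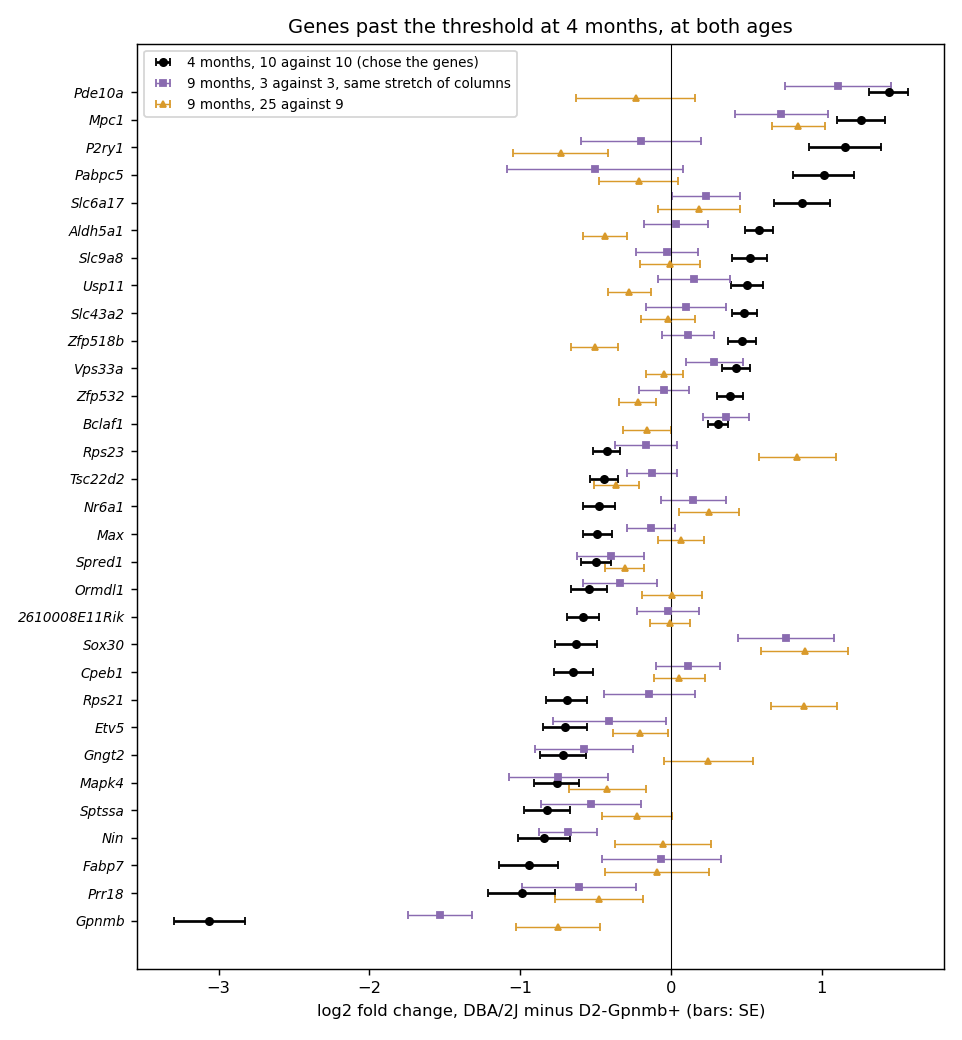
Log2 fold change with SE of 31 of the 32 genes past the threshold at 4 months (black), and of the same genes at 9 months in 25 against 9 libraries (orange) and in the 3 against 3 libraries of the stretch that holds the 4-month libraries (violet). Mpc1 and Gpnmb keep their side in all 3 comparisons, while Pde10a does so in the stretch (1.11) and not in the pooled libraries (−0.23).

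Most cone genes had lower levels in DBA/2J, and nearly all of them fell short of the adjusted threshold. Of 13 tested cone markers, 12 were negative, 10 had an unadjusted p under 0.05 in the lower direction (all genes 6.66%) and 1 passed the adjusted threshold, with 0 by edgeR and 8 by DESeq2. Gngt2, a subunit of cone transducin, ran from 35.3 through 43.0 to 87.1 in DBA/2J and from 51.7 through 72.3 to 126 in D2-Gpnmb+ (−0.72 ± 0.15, adjusted p = 0.0409). It passed in 4 of 20 fits with 1 library left out, and it overlaps Abi3 on the opposite strand. The short-wave opsin gene Opn1sw had 408 ± 149 against 823 ± 258 (−1.02 ± 0.22, adjusted p = 0.0545). The cone channel gene Cnga3 had 9.08 ± 3.42 against 14.98 ± 2.46 (adjusted p = 0.0533). The cone phosphodiesterase gene Pde6h had 14.1 ± 5.90 against 25.6 ± 8.40 (adjusted p = 0.0541). The list median was −0.60 as deposited and −0.34 scaled to total reads, where that of all tested genes was 0.24. It was −0.37 with the ribosomal RNA share as a covariate and −0.43 without the 3 D2-Gpnmb+ libraries of highest share. At 9 months it was 0.22 in the pooled libraries and −0.38 in the stretch.

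All 19 rod markers were negative. Neither limma nor edgeR called any of them, and DESeq2 called 6. In limma 10 had an unadjusted p under 0.05 (all genes 6.66% in the lower direction). The median was −0.50, or −0.28 without the 3 D2-Gpnmb+ libraries of highest ribosomal RNA share. Their summed level ran from 5403 to 11862 in DBA/2J and from 6040 to 25147 in D2-Gpnmb+, so the ranges overlapped. Pde6g, a subunit of the rod phosphodiesterase, had 334 ± 85.9 against 607 ± 284 (adjusted p = 0.150), and the disc rim gene Rom1 had 117 ± 15.4 against 177 ± 85.8 (adjusted p = 0.179). The median of the rod list at 9 months was 1.23 in the pooled libraries and 0.10 in the stretch. Guca1a stands on both photoreceptor lists.

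Most ganglion and amacrine cell markers had higher levels in DBA/2J, and limma and edgeR called none of the ganglion, amacrine, bipolar and horizontal cell markers. Of 16 tested ganglion cell markers 13 were positive, 4 had an unadjusted p under 0.05 in the higher direction (all genes 6.82%) and the median was 0.34. DESeq2 called 2 of them. Those 4 were Thy1 (0.72 ± 0.22, adjusted p = 0.150), the surface protein used in the sort, Isl1 (0.42 ± 0.13), Elavl4 (0.76 ± 0.29) and Nefm (0.99 ± 0.41). Rbpms was among the negative ganglion cell markers. Of 16 tested amacrine markers 13 were positive, 3 had an unadjusted p under 0.05, DESeq2 called 2, and the median was 0.53, or 0.31 with the ribosomal RNA share as a covariate. Pax6, a transcription factor of amacrine and other inner retinal cells, had 108 ± 53.1 against 63.9 ± 14.6 (adjusted p = 0.210), and Tfap2b had 188 ± 135 against 88.0 ± 32.9. The summed levels of the amacrine list overlapped, at 557 to 1959 in DBA/2J against 633 to 907 in D2-Gpnmb+. At 9 months the ganglion cell list had a median of −0.07 in the pooled libraries and −0.11 in the stretch. The amacrine list had −0.54 and −0.61. The 19 tested bipolar markers had a median of 0.09, with 4 higher and 2 lower at an unadjusted p under 0.05 and 1 called by DESeq2. The 5 tested horizontal cell markers had a median of −0.29, with 2 positive, 3 negative and 1 lower at an unadjusted p under 0.05, and DESeq2 called none. Tfap2b stands also on the horizontal cell list, and Isl1 also on the bipolar list. The share of each cell type in these differences was not tested.

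Markers of cells outside the neural retina or targeted by the sort's negative gates gave 1 call, that of Gpnmb. Of 17 microglia and macrophage markers 2 reached the level for testing, neither with an unadjusted p under 0.05. The list summed to 5.11 to 12.3 in DBA/2J against 3.73 to 15.8 in D2-Gpnmb+. Astrocyte markers, 7 tested, summed to 1319 to 2310 in DBA/2J against 1724 to 2336 in D2-Gpnmb+. Their median was −0.07, or 0.19 scaled to total reads, where that of all tested genes was 0.24. Of these markers 6 were negative, 1 was lower at an unadjusted p under 0.05, and limma, edgeR and DESeq2 called none. Other retinal cells also express several of them, and Gfap, the protein of the gate, was at 1.41 ± 1.002 against 0.995 ± 0.721. Vessel cell markers, 13 tested, summed to 130 to 509 against 140 to 485, with a median of 0.00, 0 at an unadjusted p under 0.05 and no call by the 3 tools. Of 16 pigment cell markers 10 were not among the genes analysed, Tyrp1 among them, and 5 were tested. All 5 were negative, with a median of −0.22 (0.04 scaled to total reads, beside 0.24 over all tested genes). Of the 5, 2 were lower at an unadjusted p under 0.05, and Gpnmb was the one called. The part of such cells in the other results was not tested.

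RNAs encoded in mitochondria and ribosomal protein messages had lower levels in DBA/2J, most of them short of the adjusted threshold. All 13 mitochondrially encoded subunits of the respiratory chain were negative, and 12 had an unadjusted p under 0.05 (all genes 6.66% in the lower direction). None passed the adjusted threshold by limma, edgeR or DESeq2, and the median was −0.75. The examples of smallest p were mt-Nd3 (36.3 ± 23.7 against 75.9 ± 46.9) and mt-Nd4l (568.2 ± 305 against 1061 ± 543), both subunits of complex I. With the ribosomal RNA share as a covariate, a share that holds 2 other mitochondrial transcripts, the median was −0.05. At 9 months, without that covariate, the median was 0.64 in the pooled libraries and −0.64 in the stretch. The 36 complex I subunits encoded in the nucleus had a median of −0.01 and no call by any of the 3 tools, with 3 lower at an unadjusted p under 0.05.

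Of 78 tested cytosolic ribosomal protein genes, 74 were negative, 43 had an unadjusted p under 0.05 in the lower direction (all genes 6.66%) and 2 passed, with 2 by edgeR and 16 by DESeq2. Rps21 ran from 5.00 through 9.49 to 10.2 in DBA/2J and from 9.79 through 14.03 to 19.4 in D2-Gpnmb+ (−0.69 ± 0.14, adjusted p = 0.0271). Rps23 ran from 50.1 through 54.5 to 78.3 against 60.9 through 77.4 to 94.6 (−0.43 ± 0.09, adjusted p = 0.0353). Such genes have near-identical copies elsewhere in the genome, so their single values are uncertain. The list median was −0.24, but 0.01 with scaling to total reads, where the median of all genes was 0.24. At 9 months the list median was 0.67 in the pooled libraries and −0.05 in the stretch. Mitochondrial ribosomal proteins, 75 tested, had a median of −0.02 and no call by the 3 tools, with 1 lower at an unadjusted p under 0.05.

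**Figure D5:**
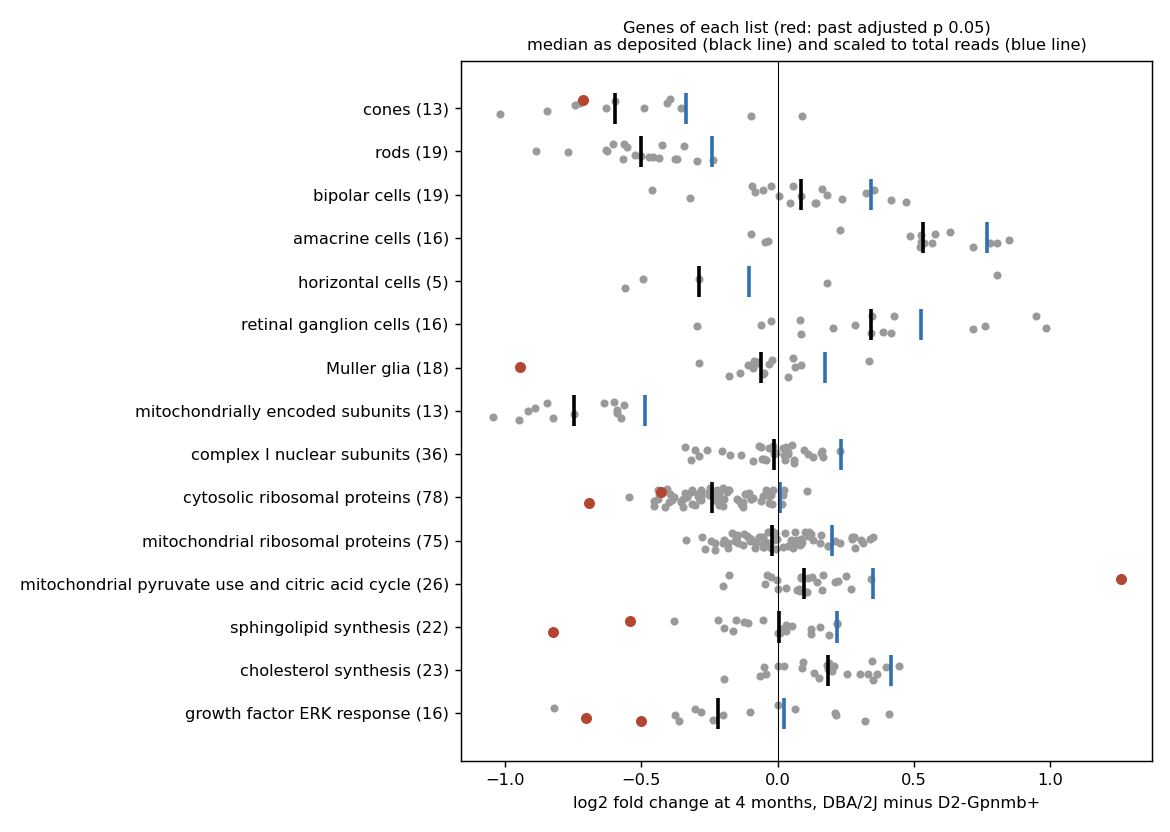
Log2 fold change at 4 months of the tested genes (points) of 15 lists, with the number tested in brackets. Red points have an adjusted p under 0.05, black lines are list medians as deposited and blue lines medians after scaling to total reads. After that scaling the median of all tested genes was 0.24. Cones (−0.60), rods (−0.50) and mitochondrially encoded subunits (−0.75) lie lowest, and single red genes stand apart from lists centred near 0, such as Mpc1 at 1.26.

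No other gene of the pathways of Pde10a and Mpc1 passed by limma. Of 26 tested genes of mitochondrial pyruvate use and the citric acid cycle, Mpc1 alone was called. In the higher direction 5 had an unadjusted p under 0.05 (all genes 6.82%). The median was 0.10, or −0.0002 with the ribosomal RNA share as a covariate. Pdk1, which restrains pyruvate dehydrogenase, had 32.5 ± 6.81 against 25.4 ± 4.88 (adjusted p = 0.230), and Dlat, a component of that enzyme complex, had 78.6 ± 5.33 against 68.4 ± 11.5 (adjusted p = 0.274). Of 17 tested cyclic nucleotide phosphodiesterases, Pde10a alone was called, and the median was −0.07. Pde7b had 50.4 ± 9.73 against 39.5 ± 5.69 (adjusted p = 0.187). Cholesterol synthesis had no call among 23 genes by limma, edgeR or DESeq2, but 19 were positive. In the higher direction 6 had an unadjusted p under 0.05 (all genes 6.82%). The 6 included Srebf2, the transcription factor that drives the pathway (40.1 ± 4.60 against 31.3 ± 6.49, adjusted p = 0.136), and Hmgcs1, an early enzyme (54.03 ± 12.1 against 40.6 ± 7.43, adjusted p = 0.161). The list median was 0.18, or 0.09 with the ribosomal RNA share as a covariate. At 9 months, without that covariate, it was −0.29 in the pooled libraries and −0.30 in the stretch.

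The lists of gliosis and acute phase, complement, interferon response, NAD, antioxidant and heat shock genes held no call at 4 months by limma, edgeR or DESeq2. Gliosis and acute phase genes (8 tested) had a median of −0.02 with 0 at an unadjusted p under 0.05, and complement (9 tested) had 0.04 with 0. MHC class I and interferon response genes (15 tested) had a median of 0.01, with 1 higher and 1 lower at an unadjusted p under 0.05. NAD synthesis and use (14 tested) had −0.04 with 0, antioxidant enzymes (21 tested) 0.06 with 1 lower, and heat shock proteins (17 tested) 0.00 with 2 lower. Synaptic vesicle release (26 tested) had no call by limma and 1 by DESeq2. Its median was 0.11, with 3 higher and 1 lower, among the higher ones the vesicle protein gene Sv2a (151 ± 35.6 against 110 ± 24.6, adjusted p = 0.145).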

How the data were processed

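The submitters' processing notes name TopHat2 2.0.7, Bowtie2 2.0.6, HTSeq and the build mm10. What the authors deposited is a signal made from read counts divided by a size for each library, on a linear scale. How that size was computed, the annotation, strand and any filter on low genes are not given in the sources used here. Each library's positive values could be turned back into whole reads (100% within a tolerance of 0.05). The table held 15171 genes, and 22 with date-like names were left out. Pairs of 4-month libraries differed beyond counting noise (chi-squared per gene of at least 7.26), so none was counted as a duplicate.

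Columns name a group and a number that no label carries, so they were used by group. In the stretch with the 4-month libraries their order follows that of the sample numbers, but columns were not paired with labels. The main test was limma 3.58.1 in R 4.3.3, with trended, robust empirical Bayes on log2 of the value plus 1, over the 20 libraries, for genes that reached 1 in 10 or more of them. Adjusted p values are Benjamini-Hochberg values over all genes tested. The 9-month and interaction fits reported per gene used the same 12804 genes. Library measures had two-sided permutation tests with 100000 resamples (scipy 1.17.1). edgeR 4.0.16 and DESeq2 1.42.0 on recovered reads were alternatives, beside the pseudocount, the filter, scaling, array weights, a ribosomal RNA covariate, all 61 libraries and leaving out each library. Leaving out the 3 D2-Gpnmb+ libraries of highest ribosomal RNA share and leaving out the 9-month library of low Xist were added after seeing the data. The fits were tested on simulated data.

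Named genes were all called genes with a name, up to 4 members of smallest p of each list described, members that define a cell type, and tested genes within 1 Mb of Gpnmb or of called genes close together. A few genes that this rule names are not reported here. Lists, members and the stretches of columns were chosen with earlier results of these data known. Positions and promoters came from RefSeq GRCm38.p6, to which 12744 of the 12804 genes matched, and overlaps from GENCODE for the same build.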

Additional observations from a re-analysis of the deposited data

Results flagged for a closer look

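In 9 of 156 sets of 10 libraries of a gene checked at 4 months, 1 library lay apart from the rest by Dixon's criterion, which chance gives in about 1 in 20 sets. DBA/2J replicate 10 was the highest of its group for Rps23 (78.3), Gngt2 (87.1), Pde6h (28.2) and Jun (32.1). Among DBA/2J libraries, Nefm was 32.4 in replicate 3 and Slc6a11 was 272 in replicate 1. Among D2-Gpnmb+ libraries, Cpeb1 was 119 in replicate 7, Rom1 was 407 in replicate 10 and Rpl9 was 108 in replicate 2.

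The strain difference at 4 months minus that at 9 months passed the interaction test over all water libraries for 9 named genes, with log2 values of −2.31 for Gpnmb, 1.02 for Aldh5a1, 0.98 for Zfp518b, −1.58 for Rps21, 1.89 for P2ry1, 0.78 for Usp11, −1.52 for Sox30, 1.65 for Pax6 and −1.24 for Rps27a. Gpnmb differed between the strains in the same direction at both ages, by −3.06 at 4 months and −0.75 at 9 months. Sox30 changed sign, from −0.63 at 4 months to 0.89 in the pooled libraries of 9 months (0.92 without the library of low Xist). In the stretch it had 0.76 at 9 months, with an adjusted p of 0.135 for the interaction by limma. Pax6 had 0.63 at 4 months and −1.02 at 9 months. Of the 7 among them that were called at 4 months, none passed within the stretch of columns that holds the 4-month libraries. Without the 9-month D2-Gpnmb+ library of low Xist, P2ry1, Usp11 and Sox30 no longer passed (adjusted p = 0.063, 0.0686 and 0.063), and the other 6 did. The 9-month libraries outside that stretch enter only 1 side of the pooled test, so stretch and age cannot be told apart in it.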

How the results depend on the processing

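The 32 calls at 4 months became 20 with scaling to total reads (19 higher and 1 lower, against 13 and 19 as deposited), with the median of all genes shifted by 0.23 on the log2 scale. They became 240 with DESeq2, 96 with array weights, 2 with all 61 libraries in one fit (Gpnmb and Mpc1), 3 with the ribosomal RNA share as a covariate (Gpnmb, Mpc1 and Pde10a) and 11 without the 3 D2-Gpnmb+ libraries of highest share, 7 of them among the 32. Leaving out 1 library gave 6 (DBA/2J replicate 4) to 95 (DBA/2J replicate 10). It gave 8 without DBA/2J replicate 3, 11 without replicate 8, 13 without replicate 2 and 14 without replicate 1. Without D2-Gpnmb+ replicates 10, 6, 4, 3 and 9 it gave 9, 15, 16, 18 and 54. The cause was not tested. The remaining settings, with the other fits that left out 1 library, gave 22 to 42 calls, edgeR 36 among them. None of the 32 called genes changed sign in these settings. Mpc2 had 0.055 with scaling to total reads, and the difference in reads per library (−290100) ran from −563100 to 55430 when 1 was left out. At 9 months 3 of 13755 genes passed, 0 within the stretch of columns that holds the 4-month libraries (873 at an unadjusted p under 0.05) and 11 with edgeR. Without the D2-Gpnmb+ library of low Xist 0 passed by limma (1859 at an unadjusted p under 0.05). The interaction with age passed for 53 of 14150 genes, for 10 within the stretch and for 15 without that library. No paired analysis was possible because the columns carry no number from the labels and the strains share none. Recovered reads of 6 to 33 per library limit the precision of Mpc1 in D2-Gpnmb+.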

Other observations

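The 7 libraries of 9-month DBA/2J mice given nicotinamide were used in 1 alternative fit over all 61 libraries and in no test of their own. Their levels are given as a description beside those of the 9 D2-Gpnmb+ libraries of the same age. Mpc1 ran from 4.45 to 11.02 with a median of 7.86, above all 9 D2-Gpnmb+ libraries (1.56 to 4.28). The overlapping 4930506C21Rik ran from 0.953 to 1.68, below all 9 (2.57 to 9.16). Such 7 and 9 libraries did not overlap in 0.469% of the 12804 genes. Gpnmb ran from 7.46 to 16.2, against 11.9 to 83.5, and only the lowest D2-Gpnmb+ library fell in that range. Pde10a ran from 18.1 to 50.1 with a median of 34.7, within the D2-Gpnmb+ range of 12.3 to 134. Prr18 ran from 1.02 to 3.83, against 1.56 to 7.98, with the groups overlapping. All 7 lie in the stretch of columns that holds the 4-month libraries, with 3 of these 9 D2-Gpnmb+ libraries.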
